A study of Homo sapiens with 12 samples.

Results

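The genes described here are 31 genes that p53 is known to activate, of 58735 genes counted in RNA sequencing of HLE-B3 cells. They were taken by gene name, as targets known from general knowledge, and all 31 were found in the tables. HLE-B3 is a human lens epithelial line that was immortalized with a hybrid of adenovirus and SV40, and the SV40 large T antigen is known to bind p53. The 4 groups were wild type (WT) and ATG7 knockout (ATG7 KO) cells, untreated at 0 h or exposed to 200 μM H2O2 for 12 h, with 3 libraries in each group. The ATG7 KO cells were made with CRISPR-Cas9 and grown from picked clones, and the labels do not say which clone was sequenced. Loss of ATG7 and other differences between a picked clone and WT cells therefore cannot be told apart. ATG7 is an enzyme that autophagosomes need to form. Untreated cells were taken at 0 h, so H2O2 and 12 h of further culture cannot be told apart.

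The protein p53 is a transcription factor that is kept low by the ubiquitin ligase MDM2. After DNA damage, kinases such as ATM and ATR modify p53 and MDM2, p53 accumulates, and it binds paired half-sites near its target genes. Those targets include MDM2 itself, which closes a negative feedback loop, and genes for DNA repair, arrest of the cell cycle, cell death and control of oxidants. Much of p53 control acts on the protein, which was not measured in these libraries.

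Sequences with the pattern of a p53 site were present next to the start of 5 members, and they are shown because they are the stretches through which p53 could act on these genes. The p53 full-site consensus (2 half-sites of 10 bases, a spacer of at most 1 base, and at most 3 mismatches) was searched on both strands from 250 bases before to 50 bases after each RefSeq transcription start on GRCh38.p14. Of the 31 members, 25 had such a window and 20% of these held a match, against 2.91% of 27305 gene symbols. Counted by window, the shares were 16.2% of 37 and 2.38% of 35116. The members were chosen as known p53 targets, so these shares are no independent evidence about them. The members without an entry were CMBL, RRM2B, GADD45A, TRIM22, PHLDA3 and TP53INP1. A match is a description of the sequence and does not show that p53 bound there in these cells. Capitals mark the half-sites, and each sequence is written 5′ to 3′ on the strand of its gene with 4 flanking bases on each side.
DDB2: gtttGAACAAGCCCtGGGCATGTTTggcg
AEN: agccGGGCTTGCCCGGGCATGTGGgagc
MDM2: agctGGTCAAGTTCAGACACGTTCcgaa
FDXR: gcccGGGCAGGAGCGGGCTTGCCCtgcg
SESN1: gtctGGACAAGTCTCCACAAGTCAgaaa

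The DDB2 sequence (chr11:47214975-47215003, plus strand) had 0 mismatches and a spacer of 1 base, and it overlapped an untranslated region annotated by GENCODE 29. That of AEN (chr15:88621302-88621329, plus strand) had 2 mismatches and overlapped one as well. MDM2 carried a match with 2 mismatches at chr12:68808919-68808946, plus strand, in no annotated exon but within 7 of its 34 annotated transcripts, and so intronic in these. FDXR had 3 mismatches at chr17:74872992-74873019, minus strand, where an untranslated region is annotated. SESN1 also had 3 mismatches, at chr6:109009014-109009041, minus strand, intronic in 2 of its 7 transcripts. Only 0.0883% of all 35116 windows held a match with at most 1 mismatch, and the DDB2 window was one of them.

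The libraries held 15602183 to 17659496 reads assigned to genes. Untreated ATG7 KO replicate 1 stood apart, with a mean correlation of 0.974 with the other libraries of its group, against 0.983 for its partners and 0.991 in the remaining groups. Relative to its group, its genes over 6000 bases long were lower by a median of -0.261 (log2) and those under 1500 bases higher by 0.256. Of the 31 members, 18 were highest and 9 lowest in this replicate, and the counts of members called at an adjusted p under 0.01 that use it are also given without it. ATG7 itself was not lower in the knockout, at 3.42 to 3.78 FPKM (fragments per kilobase of exon, scaled to library size) in untreated ATG7 KO and 2.21 to 2.81 FPKM in untreated WT libraries (adjusted p = 0.0348, and 6.02e-06 without replicate 1), and counts over a whole gene cannot show a small deletion in it. With H2O2 the levels were 2.11 to 2.35 and 1.91 to 1.99 FPKM (adjusted p = 0.135), after falls of 0.70 and 0.39 on the log2 scale, the first of which did not pass without treated ATG7 KO replicate 1 or 2 (adjusted p up to 0.0143). Of 8 lens epithelial markers, CDH2 was high (97.9 to 184 FPKM) and PAX6 low (0.505 to 1.35 FPKM), and 4 or 5 averaged under 0.1 FPKM in each group. Among these, FOXE3, a defining factor of lens epithelium, did not exceed 0.0893 FPKM in any library.

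The members were expressed across a wide range, and with H2O2 they took a larger share of all reads in both lines. In untreated WT cells the members' mean FPKM ran from 0 for CMBL, a cysteine hydrolase, to 76.0 for PLK2, a polo-like kinase, with a median of 4.89. In untreated ATG7 KO cells the median was 4.80. With H2O2 the median was 33.5 in WT and 40.6 in ATG7 KO cells, and GADD45A, a stress sensor that can arrest the cell cycle, had the highest level of the members in both. The members together held 0.149% to 0.151% of the reads of untreated WT libraries and 0.623% to 0.689% of those with H2O2. The shares were 0.124% to 0.140% and 0.616% to 0.639% in ATG7 KO libraries. Fewer cells of a type and less RNA per cell cannot be told apart in RNA from whole cultures. CMBL had at most 11 reads in a library and entered no test.

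**Figure D1:**
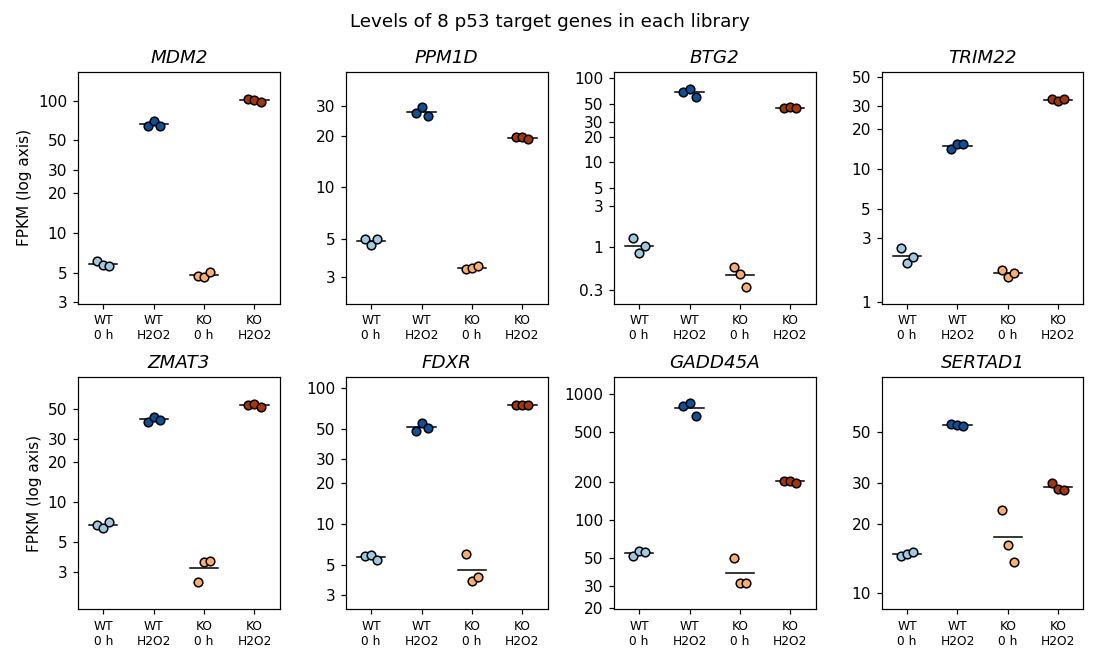
Levels of 8 p53 target genes in the 12 libraries, in FPKM on log axes. Each point is 1 library and each line the mean of 3; KO stands for ATG7 KO. MDM2, TRIM22, ZMAT3 and FDXR reach their highest levels in ATG7 KO cells with H2O2, while PPM1D, GADD45A, SERTAD1 and BTG2 are highest in WT cells with H2O2.

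The first question was how the p53 target genes changed in WT cells under H2O2. A gene was called higher or lower at an adjusted p under 0.01 in edgeR's quasi-likelihood test. Of the 30 members tested, 29 were higher and 1 was lower, whereas 30.9% of all genes tested were higher and 30.1% lower. The members' median log2 fold change was 2.50, and that of all genes was -0.01. A total of 23 members also passed a log2 fold change of 1 and a mean of 1 FPKM, against 7.3% of all genes, and no member passed all thresholds downward (0 by edgeR and 0 by DESeq2, against 5.24% of all genes). The 3 treated and 3 untreated libraries did not overlap in any of the 30 members, 29 upward and 1 downward, against 34.3% and 37.2% of all genes.

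Among the feedback genes, MDM2 (ENSG00000135679, chr12:68808176-68850686) had 6.16, 5.71 and 5.63 FPKM in the untreated WT libraries and 64.1, 70.3 and 64.7 FPKM with H2O2. The groups were far apart, and the log2 fold change was 3.5 ± 0.05 (SE), an 11.3-fold rise (adjusted p = 5.78e-45). PPM1D, a phosphatase that reverses damage signals on p53, rose by 2.49 ± 0.06 on the log2 scale. CCNG1, a cyclin that brings a phosphatase to MDM2, rose by 0.81 ± 0.05. MDM4, a relative of MDM2 that restrains p53 without degrading it, was the member that fell, from 2.92 to 3.15 FPKM to 2.17 to 2.66 FPKM. Its log2 fold change was -0.34 ± 0.08 (adjusted p = 0.000178), and -0.08 (adjusted p = 0.396) after a correction for gene length.

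All 4 members of DNA repair and nucleotide supply rose in WT cells. RRM2B, the p53-inducible subunit of ribonucleotide reductase, had a log2 fold change of 1.86 ± 0.05, and POLH, a polymerase that copies past damaged bases, had 1.6 ± 0.05. The rise was smaller in DDB2 and XPC, which recognise damage in nucleotide excision repair, at 0.88 ± 0.09 and 0.48 ± 0.09. Fitted together with the ATG7 KO libraries, XPC did not pass.

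The arrest genes held both the largest and the smallest rise of the members in WT cells. BTG2 (ENSG00000159388, chr1:203305491-203309602), an antiproliferative gene, had 1.25, 0.828 and 1.0 FPKM untreated and 69.1, 74.8 and 60.8 FPKM with H2O2. This was a 66.3-fold rise, with a log2 fold change of 6.05 ± 0.10 and groups far apart. GADD45A (ENSG00000116717, chr1:67685061-67688338) had 52.0, 57.0 and 56.0 FPKM untreated and 804, 850 and 665 FPKM with H2O2. It was the most highly expressed member after treatment, and the rise was 14-fold (log2 fold change 3.81 ± 0.11). PLK3, a stress-activated polo-like kinase, rose by 2.52 ± 0.09 and SERTAD1, a regulator of cyclin D-dependent kinase, by 1.85 ± 0.06. PLK2, already the highest untreated member, rose by 0.25 ± 0.04, a 1.19-fold change that still separated the groups (89.9 to 91.4 against 74.6 to 77.4 FPKM).

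The 9 cell death members rose by 0.97 to 3.63 on the log2 scale. PHLDA3, an inhibitor of the survival kinase AKT, had the largest change among them (3.63 ± 0.07), followed by CYFIP2, a subunit of the actin-regulating WAVE complex (3.09 ± 0.12). AEN, a nuclease active in apoptosis, and TP53I3, a quinone oxidoreductase, rose by 2.66 ± 0.06 and 2.65 ± 0.08. TP53INP1, a promoter of cell death and autophagy, rose by 2.23 ± 0.06. TRIAP1, which restrains apoptosis at mitochondria, rose by 1.61 ± 0.06, PIDD1, which activates caspase-2, by 1.32 ± 0.07, and PERP, a junction protein, by 1.08 ± 0.04. The lowest value was that of TNFAIP8, a regulator of apoptosis (0.97 ± 0.06).

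The 4 members of redox, metabolism and mitochondria that could be tested rose by 2.91 to 3.19 on the log2 scale. FDXR, the mitochondrial ferredoxin reductase, rose by 3.19 ± 0.06, SESN1, a sestrin that restrains mTORC1 and oxidants, by 3.05 ± 0.07, SPATA18, a factor of mitochondrial quality control, by 2.93 ± 0.31, and TIGAR, a phosphatase that lowers glycolysis, by 2.91 ± 0.20. SPATA18 stayed under 1 FPKM in every WT library. Of the remaining genes, SUSD6, a membrane protein induced by DNA damage, TRIM22, an antiviral ubiquitin ligase, and ZMAT3, an RNA-binding zinc finger protein, rose by 2.77 ± 0.05, 2.75 ± 0.07 and 2.64 ± 0.05. NINJ1, which ruptures the plasma membrane of dying cells, rose by 1.80 ± 0.05.

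Markers of other cell types moved with H2O2 as well. The summed level of 6 fibroblast markers was 623 to 655 FPKM in untreated WT libraries and 270 to 287 FPKM with H2O2, most of it COL1A1. The 8 lens epithelial markers summed to 163 to 173 and 103 to 105 FPKM, most of it CDH2 (159 to 169 and 97.9 to 101 FPKM). CRYAB, a small heat shock protein of the same list, went the other way, from 0.132 to 0.197 FPKM to 1.43 to 1.98 FPKM (log2 3.24 ± 0.28, adjusted p = 3.83e-14). The 4 lens fibre markers summed to 0.188 to 0.453 and 0.657 to 0.829 FPKM, and the 4 leukocyte markers to 1.78 to 2.51 and 1.22 to 1.85 FPKM. The leukocyte markers did not move together. LYZ and PTPRC fell in WT cells (log2 -2.06 and -2.14, adjusted p = 1.3e-06 and 0.00129), and CD14 did not pass (0.74, adjusted p = 0.0176). In ATG7 KO cells the fibroblast sum was 360 to 512 FPKM untreated and 247 to 257 FPKM with H2O2, and the lens epithelial sum was 156 to 187 and 108 to 117 FPKM. The lens fibre sum was 0.241 to 0.541 and 0.598 to 0.638 FPKM, and the leukocyte sum 1.54 to 2.30 and 0.572 to 0.911 FPKM. CD14 fell in these cells (log2 -1.65 ± 0.28, adjusted p = 0.00347). CRYAB again rose in these cells (log2 5.98 ± 0.58, adjusted p = 0.000335), from at most 0.0356 FPKM. The fibroblast marker LUM, a matrix proteoglycan, was 55.9-fold higher in untreated ATG7 KO than in WT cells (8.30 to 11.7 against 0.108 to 0.206 FPKM, adjusted p = 6.71e-05). With H2O2 it was 30.1-fold higher (adjusted p = 1.34e-17). The other fibroblast markers tested did not pass untreated, with log2 values of -0.52 (COL1A1), -0.37 (COL1A2), -0.55 (PDGFRA) and 0.52 (PDGFRB). DCN did not exceed 0.00944 FPKM in any library. Of the leukocyte markers, LYZ was lower in untreated ATG7 KO than in WT cells (log2 -3.54 ± 0.59, adjusted p = 0.00757). CD14 did not pass in that comparison (1.26, adjusted p = 0.0159). The part of all these markers in the members' changes was not tested.

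The next question was whether ATG7 KO cells responded to H2O2 in these genes. Of the 30 members tested, 26 were higher, against 13.6% of all genes, and 25 of them passed the fold and FPKM thresholds as well, against 6.09%. The members' median log2 fold change was 2.38. No member was lower (0 by edgeR, 0 by DESeq2, 0 at an unadjusted p under 0.05), against 12.4% of all genes, and 0 passed all thresholds downward, against 5.11%. The libraries of the 2 groups did not overlap in 27 members, which were higher with H2O2, and in 0 that were lower, against 30% and 29.7% of all genes. Without untreated ATG7 KO replicate 1, 28 members were higher, against 29.8% of all genes, because CCNG1 (0.59 ± 0.04) and SERTAD1 (0.94 ± 0.07) then passed.

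BTG2 again had the largest change of the members in ATG7 KO cells, from 0.572, 0.468 and 0.333 FPKM to 44.7, 45.1 and 44.1 FPKM. Its log2 fold change was 6.60 ± 0.17 (adjusted p = 2.96e-06). SPATA18 had a log2 fold change of 4.45 ± 0.31 from levels under 0.1 FPKM. MDM2 rose from 4.71, 4.65 and 5.03 FPKM to 103, 102 and 96.9 FPKM, a 20.9-fold change (log2 4.38 ± 0.11). TRIM22 (ENSG00000132274, chr11:5689689-5737089) had 1.73, 1.54 and 1.65 FPKM untreated and 34, 32.5 and 33.9 FPKM with H2O2, a 20.3-fold rise. ZMAT3 (ENSG00000172667, chr3:179017223-179072279) went from 2.50, 3.52 and 3.58 FPKM to 54.5, 54.8 and 52.4 FPKM. None of these members had groups that overlapped.

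Of the DNA repair genes, RRM2B rose by 2.79 ± 0.09 in ATG7 KO cells, POLH by 2.35 ± 0.18, DDB2 by 1.51 ± 0.10 and XPC by 1.47 ± 0.25. The call for XPC (adjusted p = 0.00372) was lost without untreated replicate 3 or any treated library, with values of 1.22 to 1.73 and adjusted p up to 0.0185. That for TRIAP1 (1.34 ± 0.28, adjusted p = 0.00814) was lost without any library other than untreated replicate 1, with values of 1.13 to 1.76 and adjusted p up to 0.0331. In the redox group, FDXR rose by 4.04 ± 0.19, SESN1 by 3.04 ± 0.13 and TIGAR by 2.34 ± 0.32. In the cell death group, CYFIP2, AEN and PHLDA3 had log2 fold changes of 3.94 ± 0.14, 3.09 ± 0.10 and 3.06 ± 0.19. TP53INP1, TP53I3, PIDD1 and PERP followed with 2.93, 2.77, 2.10 and 1.12. PPM1D rose by 2.51 ± 0.09, GADD45A by 2.42 ± 0.19, SUSD6 by 2.25 ± 0.18, PLK3 by 1.59 ± 0.10, NINJ1 by 1.12 ± 0.13 and PLK2 by 1.03 ± 0.09. The 4 members that did not pass were CCNG1, with a log2 value of 0.39 (adjusted p = 0.0981), SERTAD1, with 0.71 (adjusted p = 0.0186), MDM4 and TNFAIP8.

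**Figure D2:**
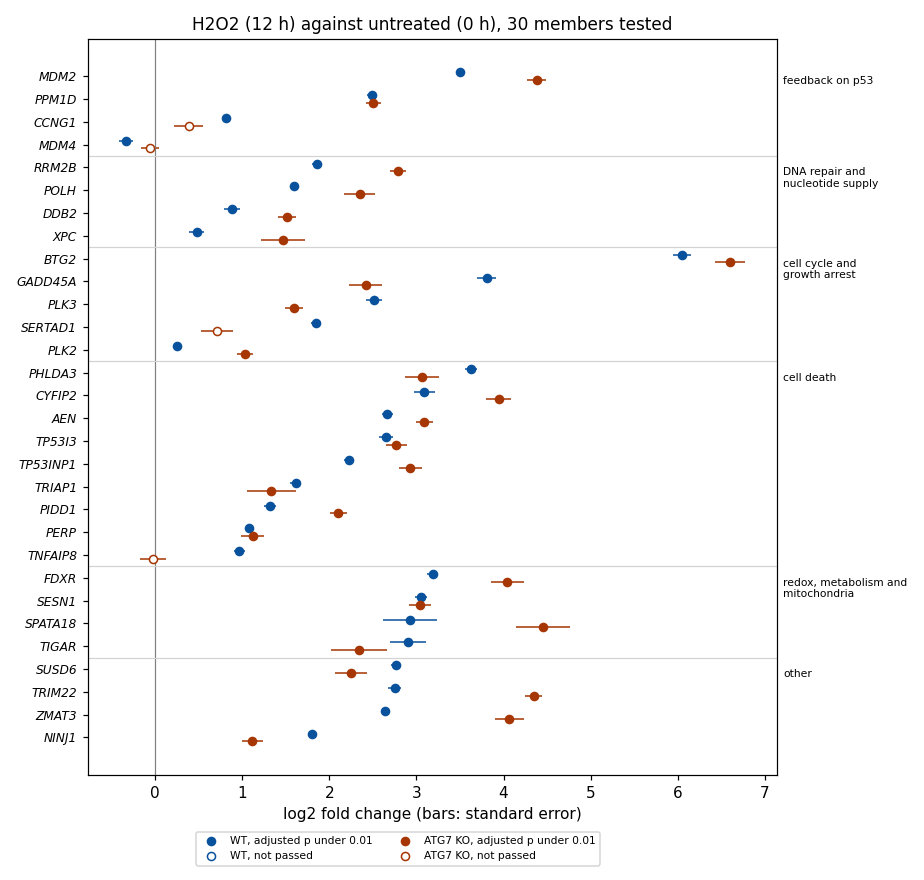
Log2 fold change with H2O2 (12 h against 0 h) of the 30 members tested, in WT and ATG7 KO cells, grouped by role. Points are edgeR estimates, bars are standard errors, and open points did not pass an adjusted p of 0.01; the 29 WT rises lie between 0.25 and 6.05 and the 26 ATG7 KO rises between 1.03 and 6.60.

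Among 21 genes that act upstream of p53, 9 were higher and 9 lower with H2O2 in WT cells, against 30.9% and 30.1% of all genes, with a median log2 fold change of 0.02. ATM and ATR, the kinases that start the damage response, were the ones past all thresholds, with log2 fold changes of -1.61 ± 0.06 and -1.03 ± 0.07. ATM went from 4.58 to 4.79 FPKM down to 1.44 to 1.66 FPKM. In ATG7 KO cells 1 was higher (USP7, a deubiquitinase of MDM2) and 0 were lower by edgeR, against 13.6% and 12.4% of all genes, while 6 of the 21 had an unadjusted p under 0.05 in either direction. Without untreated ATG7 KO replicate 1 the counts were 7 and 8, against 29.8% and 28.6% of all genes. ATM had a value of -0.82 in ATG7 KO cells (adjusted p = 0.0185 by edgeR), and it passed all thresholds downward without that replicate. Its levels were 2.68, 4.38 and 4.56 FPKM untreated and 2.03 to 2.45 FPKM with H2O2. Untreated, 0 of the 21 differed between the lines by edgeR, against 4.42% of all genes higher and 3.28% lower, while 4 had an unadjusted p under 0.05, and no other tool was run on this list. Without that replicate 2 were higher and 3 lower, against 18.2% and 17.9% of all genes. With H2O2, 8 were higher and 5 lower in ATG7 KO than in WT cells, against 27.7% and 27.9% of all genes, and none passed all thresholds (0 by edgeR). The H2O2 response differed between the lines in ATR (0.95 ± 0.17, adjusted p = 0.00169), against 7.02% of all genes more positive and 7.01% less positive. Without that replicate 8 were more positive, among them ATR (0.82 ± 0.10), and 4 less positive, against 17.8% and 16.3% of all genes. ATM and ATR are both long genes. Over all genes in the longest of 10 length bins, the median was -0.28 in the WT response and 0.40 in the difference of responses. Values of ATM and ATR corrected for gene length are not given here, and the part of length in their changes was not tested.

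The lines were then compared before treatment. Of 29 members tested, PLK3 was higher and PLK2 and ZMAT3 lower in untreated ATG7 KO cells, against 4.42% of all genes higher and 3.28% lower. PLK2 had 32.2, 27.7 and 29.8 FPKM in ATG7 KO and 76.1, 74.6 and 77.4 FPKM in WT libraries, without overlap. Its log2 fold change was -1.35 ± 0.10 (adjusted p = 0.000260). ZMAT3 had 2.50, 3.52 and 3.58 FPKM against 6.78, 6.39 and 7.04 FPKM, with a log2 fold change of -1.07 ± 0.15. PLK3 had 6.0, 5.84 and 4.94 FPKM against 2.41, 2.80 and 2.18 FPKM, with a log2 fold change of 1.18 ± 0.14. SPATA18 had too few reads for this test. All 3 genes passed all thresholds, which 2.27% of all genes did upward and 1.23% downward. The libraries of the lines did not overlap in 9 members that were higher and 11 that were lower in ATG7 KO cells, against 22.5% and 22.9% of all genes.

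These counts depended on untreated ATG7 KO replicate 1. Without it 7 members were higher and 11 lower, against 18.2% and 17.9% of all genes. Past all thresholds were then PLK3 (higher) and BTG2 and PLK2 (lower), while ZMAT3 (-0.92) was under the fold threshold. The additional higher members were CCNG1 (0.38), PHLDA3 (0.55), PIDD1 (0.30), SUSD6 (0.56), TNFAIP8 (0.62) and TP53I3 (0.72). The additional lower ones were BTG2 (-1.34), FDXR (-0.54), GADD45A (-0.79), MDM2 (-0.26), MDM4 (-0.28), POLH (-0.54), PPM1D (-0.50), TP53INP1 (-0.31) and TRIM22 (-0.47). With all 3 replicates, the next in line were PPM1D at -0.52 (adjusted p = 0.0102) and TNFAIP8 at 0.80 (adjusted p = 0.0123). The call for PLK3 was lost without untreated WT replicate 1 or 3 or untreated ATG7 KO replicate 2 (values 1.10 to 1.29, adjusted p up to 0.0204). That for ZMAT3 was lost without any library other than untreated ATG7 KO replicate 1 (values -1.16 to -0.92, adjusted p up to 0.0282), while PLK2 passed without each library. CDKN1A, which encodes the cell cycle inhibitor p21 and is the best known p53 target, had 48.3 to 50.3 FPKM in WT and 46.1 to 51.1 FPKM in ATG7 KO libraries, and the groups overlapped (adjusted p = 0.717).

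With H2O2 more members were called between the lines, in both directions, and so were more of all genes. The common coefficient of variation between replicates was 0.162 in the untreated comparison and 0.0416 in this one, so the 2 counts are not directly comparable. Of 30 members, 16 were higher and 9 lower in ATG7 KO than in WT cells, against 27.7% and 27.9% of all genes. Most differences were small, and TRIM22 and PIDD1 (higher) and GADD45A (lower) passed all thresholds, which 3.03% and 4.43% of all genes did. The 3 libraries of each line did not overlap in 16 members that were higher and 8 that were lower, against 36.5% and 31.7% of all genes. The members' median log2 fold change was 0.21. Gene length moved with this comparison too, with a median of 0.14 over all genes longer than 6000 bases and -0.17 over those shorter than 1500 bases. After the correction for gene length the same 25 members passed in the same direction, and the value was 0.36 for MDM2, 0.19 for ZMAT3, 0.25 for CCNG1 and -0.36 for TNFAIP8. This comparison shares its libraries with the responses above, so its values are not independent of them.

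The members with the largest differences moved in opposite directions. GADD45A had 205, 204 and 197 FPKM in ATG7 KO and 804, 850 and 665 FPKM in WT libraries, with a log2 fold change of -1.94 ± 0.11 (adjusted p = 6.72e-05). TRIM22 had 34, 32.5 and 33.9 FPKM against 14.1, 15.4 and 15.4 FPKM, a 2.23-fold difference (log2 1.15 ± 0.04). PIDD1 had 18.7, 19.0 and 20.7 FPKM against 8.52, 9.32 and 9.13 FPKM, a 2.15-fold difference (log2 1.11 ± 0.05). In none of these genes did the lines overlap. An exon of PIDD1 overlaps 107 bases of RPLP2 on the opposite strand, a ribosomal protein gene at a mean of 176 FPKM, and since the strand setting of the counting is not given, reads of these genes may be shared.

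By role, the DNA repair members were higher in ATG7 KO cells with H2O2 in 3 of 4 cases, against 27.7% of all genes. RRM2B had 71.7, 72.1 and 70.9 FPKM against 37.0, 40.5 and 41.2 FPKM (log2 0.85 ± 0.04), XPC had a log2 fold change of 0.83 ± 0.06 and DDB2 of 0.74 ± 0.07. POLH did not pass (0.03, adjusted p = 0.494). The arrest genes were lower in 4 of 5 cases, against 27.9% of all genes. These were SERTAD1 (-0.90 ± 0.05), BTG2 (-0.62 ± 0.05), PLK2 (-0.57 ± 0.03) and GADD45A, while PLK3 was higher (0.25 ± 0.06). Before treatment the values were -1.35 for PLK2, 1.18 for PLK3 and, not passed, -1.17 for BTG2, -0.55 for GADD45A and 0.24 for SERTAD1. The estimates of PLK2 and BTG2 were thus further below 0 before treatment than with H2O2. Tested as a difference of the H2O2 responses, this passed for PLK2 (adjusted p = 0.000217) and not for BTG2 (adjusted p = 0.0902). SERTAD1 had 30.2, 28.3 and 28.1 FPKM in ATG7 KO and 54.3, 53.6 and 53.4 FPKM in WT libraries.

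In the cell death group, 7 of 9 members were higher and 1 lower, against 27.7% and 27.9% of all genes. After PIDD1 came TP53I3, which had 56.6, 59.1 and 58.0 FPKM in ATG7 KO and 28.4, 30.2 and 30.6 FPKM in WT libraries (log2 0.95 ± 0.05). AEN, TRIAP1, TP53INP1, PERP and PHLDA3 were higher by 0.42, 0.35, 0.27, 0.27 and 0.22, TNFAIP8 was lower (-0.20 ± 0.06), and CYFIP2 did not pass (0.19, adjusted p = 0.0210). Of the feedback genes, MDM2 was higher (0.59 ± 0.03), with 96.9 to 103 FPKM against 64.1 to 70.3 FPKM, and CCNG1 was higher by 0.15 ± 0.04. PPM1D was lower (-0.51 ± 0.05), with 19.2 to 19.6 FPKM against 26.2 to 29.4 FPKM, and MDM4 did not pass. With H2O2, the 2 negative regulators of p53 with a strong response, MDM2 and PPM1D, therefore differed between the lines in opposite directions. For PPM1D the untreated value was similar (-0.52, adjusted p = 0.0102), and a difference of its H2O2 responses did not pass (0.01, adjusted p = 0.931). For MDM2 the untreated value was -0.28 (adjusted p = 0.0718).

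In the redox group FDXR was higher (0.53 ± 0.04), with 75.2 to 75.8 FPKM against 48.8 to 56.0 FPKM, and TIGAR was lower (-0.81 ± 0.15), at 1.14 to 1.33 FPKM against 2.0 to 2.59 FPKM. SESN1 (0.12, adjusted p = 0.0382) and SPATA18 (0.17, adjusted p = 0.427) did not pass. ZMAT3 was higher (0.35 ± 0.03), and NINJ1 (-0.42 ± 0.04) and SUSD6 (-0.15 ± 0.04) were lower. SUSD6 was the called member whose lines overlapped. Its call was lost without any library other than WT replicate 3 (adjusted p up to 0.0447). The call for TNFAIP8 was lost without WT replicate 3 or ATG7 KO replicate 2 or 3 (adjusted p up to 0.0251), for CCNG1 without WT replicate 1 or ATG7 KO replicate 1 or 2 (adjusted p up to 0.0251), and for PLK3 without WT replicate 1 (adjusted p = 0.0114). Fitted together with the untreated libraries, 9 members were higher in place of 16. CDKN1A was higher in ATG7 KO cells by 0.12 ± 0.04 (adjusted p = 0.00824), and did not pass without WT replicate 1 or 3 or ATG7 KO replicate 1 or 2 (adjusted p up to 0.0601).

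**Figure D3:**
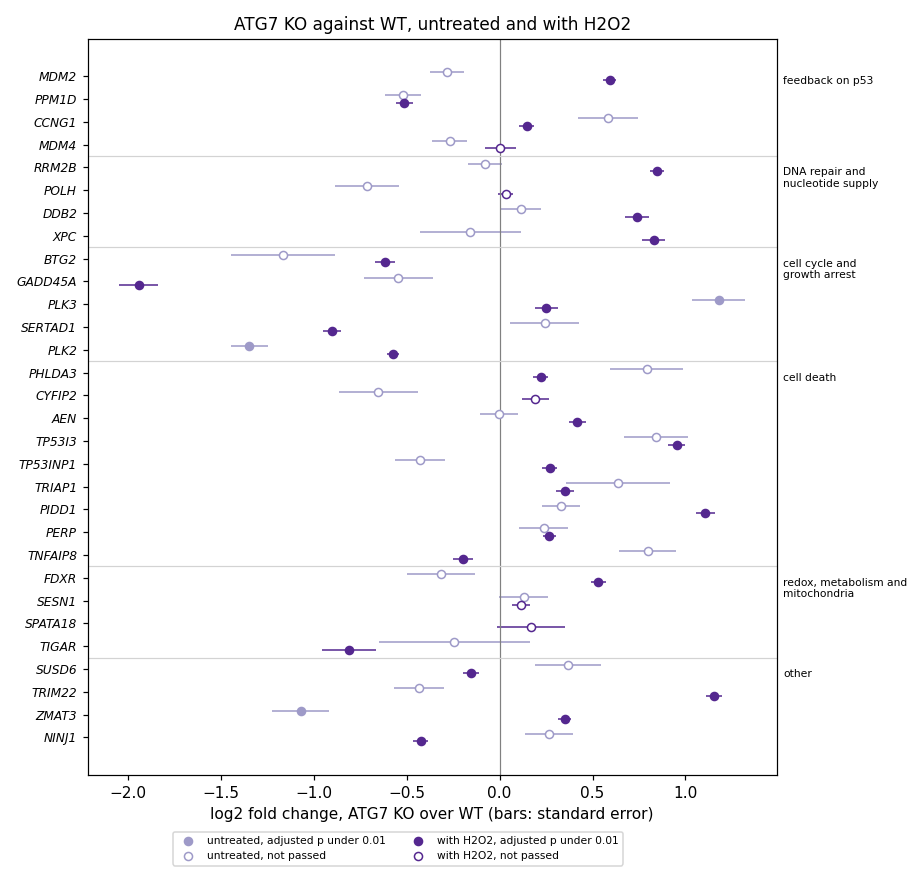
Log2 fold change of ATG7 KO over WT for the members, untreated and with H2O2, grouped by role. Bars are standard errors and filled points passed an adjusted p of 0.01. In untreated cells 3 members passed and the bars are wide; with H2O2 25 passed, from -1.94 for GADD45A to 1.15 for TRIM22.

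Whether the H2O2 response itself differed between the lines was tested as an interaction over all 12 libraries. The response was more positive in ATG7 KO cells in 11 of 30 members and less positive in 5, against 7.02% and 7.01% of all genes. Without untreated ATG7 KO replicate 1 the counts were 14 and 8, against 17.8% and 16.3% of all genes. Leaving out H2O2-treated WT replicate 1 or 3, or H2O2-treated ATG7 KO replicate 1 or 2, left 7 members more positive in each case. The members' median difference was 0.35, with and without that replicate. All thresholds were passed by TRIM22 and ZMAT3 (more positive) and by GADD45A and SERTAD1 (less positive), against 1.93% and 3.24% of all genes. Without that replicate they were passed by FDXR, TRIM22 and ZMAT3 and by GADD45A.

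TRIM22 had the largest positive difference that passed, 1.6 ± 0.13 on the log2 scale (adjusted p = 1.72e-05), so that its rise was 20.3-fold in ATG7 KO and 6.73-fold in WT cells. ZMAT3 followed with 1.43 ± 0.16, and here the ATG7 KO cells started lower and ended higher than WT cells. RRM2B (0.93 ± 0.10), MDM2 (0.88 ± 0.10), FDXR (0.85 ± 0.19), CYFIP2 (0.85 ± 0.20), PIDD1 (0.78 ± 0.11), PLK2 (0.78 ± 0.10), POLH (0.75 ± 0.18), TP53INP1 (0.71 ± 0.14) and DDB2 (0.63 ± 0.12) made up the rest. PLK2 stayed lower in ATG7 KO than in WT cells even so, at 60.3 to 62.5 against 89.9 to 91.4 FPKM with H2O2. The calls for FDXR and POLH were lost without any single WT or treated ATG7 KO library (adjusted p up to 0.0179 and 0.0251). That for CYFIP2 was lost in 8 of 12 such fits, namely without untreated WT replicate 2 or 3, treated WT replicate 1 or 3, untreated ATG7 KO replicate 3 or any treated ATG7 KO library (adjusted p up to 0.0284). That for TP53INP1 was lost in 5, without untreated WT replicate 1, treated WT replicate 1 or 3, or treated ATG7 KO replicate 1 or 2 (adjusted p up to 0.0123).

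The less positive members were GADD45A (-1.39 ± 0.22, adjusted p = 0.000753), SERTAD1 (-1.14 ± 0.20), TNFAIP8 (-0.99 ± 0.17), PLK3 (-0.92 ± 0.16) and NINJ1 (-0.68 ± 0.14). TNFAIP8 had 3.16, 3.01 and 3.16 FPKM in untreated WT and 5.88, 5.97 and 6.43 FPKM in treated WT libraries, but 6.76, 4.67 and 4.81 FPKM and 5.49, 5.25 and 5.30 FPKM in ATG7 KO libraries. Its WT groups did not overlap. Its ATG7 KO groups overlapped through untreated replicate 1 (6.76 FPKM), and the other untreated ATG7 KO libraries were under the treated ones. The call for NINJ1 was lost without any untreated WT or treated ATG7 KO library or treated WT replicate 2 (values -0.76 to -0.54, adjusted p up to 0.0136). Without untreated ATG7 KO replicate 1, SUSD6 (-0.69 ± 0.07), PHLDA3 (-0.31 ± 0.09) and CCNG1 (-0.21 ± 0.07) were also less positive, and AEN (0.40 ± 0.09), PERP (0.20 ± 0.06) and XPC (0.75 ± 0.12) more positive. CDKN1A had a difference of 0.17 (adjusted p = 0.247) with all libraries and 0.23 ± 0.06 (adjusted p = 0.000395) without that replicate.

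Gene length moved with this difference. Over all genes tested, the median difference was 0.24 in the 5609 genes over 6000 bases and -0.37 in the 2090 genes under 1500 bases. The exonic length of the members ran from 1442 bases (TRIAP1) to 13284 bases (MDM2). The 11 members with a more positive response had a median length of 5676 bases, the 5 with a less positive one 2648 bases and the other 14 members 4544 bases. Across the 30 members, which share the same libraries, Pearson's r between log2 length and the difference was 0.48 and Spearman's rho 0.52. After a correction for gene length within each library, 9 of the 11 and all 5 still passed, with TRIM22 at 1.5, ZMAT3 at 1.13 and GADD45A at -1.06. MDM2 (0.42, adjusted p = 0.0546) and CYFIP2 (0.52, adjusted p = 0.0560) did not.

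**Figure D4:**
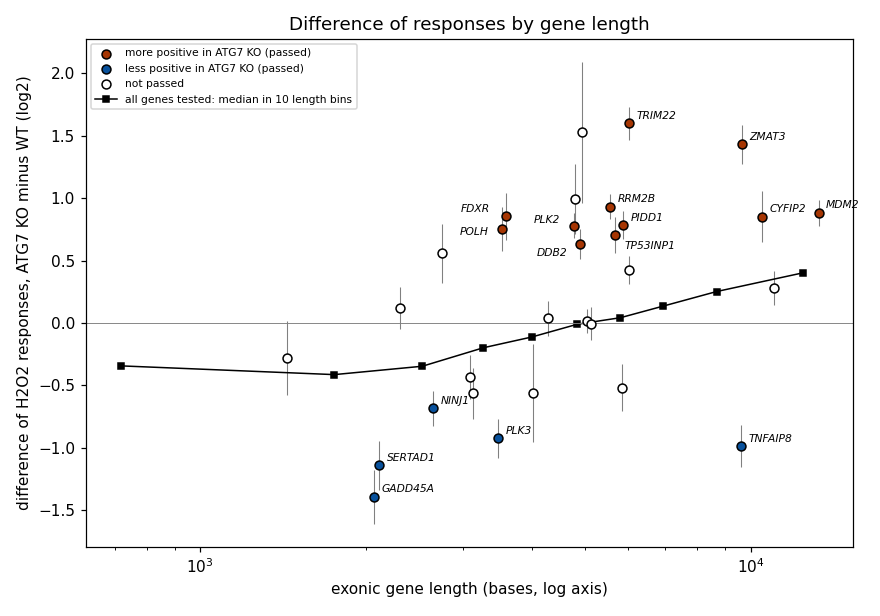
Difference of the H2O2 responses (ATG7 KO minus WT, log2) of the 30 members against exonic gene length in bases on a log axis. Bars are standard errors, coloured points passed an adjusted p of 0.01, and squares are medians of all genes tested in 10 length bins, which run from -0.41 to 0.40. TRIM22 and ZMAT3 lie above and GADD45A, SERTAD1 and TNFAIP8 below the medians at their length.

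A second list of 20 known p53 targets, outside the 31, was examined for comparison. In WT cells 18 of 19 tested were higher and THBS1, a matrix glycoprotein, was lower, against 30.9% and 30.1% of all genes, with a median log2 fold change of 2.47. In ATG7 KO cells 17 of 18 tested were higher, against 13.6% of all genes, with a median of 2.13. Without untreated ATG7 KO replicate 1, 17 were higher and 1 lower, against 29.8% and 28.6%. CDKN1A rose from 48.3 to 50.3 FPKM to 1453 to 1676 FPKM in WT and from 46.1 to 51.1 FPKM to 1662 to 1713 FPKM in ATG7 KO cells, with log2 fold changes of 4.96 ± 0.05 and 5.14 ± 0.12. Also past all thresholds in both lines were APAF1, ASCC3, BBC3, BLOC1S2, FAS, GDF15, PMAIP1, SESN2, SFN, TNFRSF10A, TNFRSF10B and TSKU. BAX passed them in WT cells, and IGFBP3 and RPS27L in ATG7 KO cells. In ATG7 KO cells BAX was higher but under the fold threshold (log2 0.88). Without untreated ATG7 KO replicate 1 BAX passed all thresholds there as well.

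Between the lines, 3 of 18 of these targets were higher and 1 lower in untreated ATG7 KO cells, against 4.42% and 3.28% of all genes, and THBS1 (higher) and IGFBP3 (lower) passed all thresholds. Without untreated ATG7 KO replicate 1, 5 were higher and 6 lower, against 18.2% and 17.9%. With H2O2, 8 of 19 were higher and 4 lower, against 27.7% and 27.9% of all genes, and SFN, a cell cycle inhibitor, and THBS1 (higher) and IGFBP3 (lower) passed all thresholds. SFN had 17.2 to 18.5 FPKM in ATG7 KO and 5.41 to 6.34 FPKM in WT libraries. The difference of the responses was more positive in 4 and less positive in 2, against 7.02% and 7.01% of all genes, and ASCC3 and GDF15 (more positive) and PMAIP1 (less positive) passed all thresholds. Without that replicate it was more positive in 9 and less positive in 3, against 17.8% and 16.3%, and GDF15, SFN and PMAIP1 passed all thresholds. PMAIP1, which encodes the cell death protein NOXA, rose from 29.3 to 30.8 FPKM to 364 to 434 FPKM in WT cells and from 45.6 to 62.6 FPKM to 202 to 210 FPKM in ATG7 KO cells. With all libraries the difference of PMAIP1 was -1.72 ± 0.16 (adjusted p = 3.06e-05), larger in size than that of any member. Without that replicate it was -1.55 ± 0.07, smaller in size than that of TRIM22 (1.64 ± 0.11).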

How the data were processed

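The authors deposited raw read counts per gene and FPKM values for 12 libraries, 3 replicates in each of 4 groups, taken from the labels. The paper, not the labels, describes the replicates as biological. The submitters' processing notes name HISAT2 2.0.5, featureCounts 1.5.0-p3 and GRCh38 (hg38). Strand and multimapping settings are not given in the sources used here. The FPKM values deposited by the authors equalled count over length and total count, times a factor of 0.949 to 1.02 per library. Library totals were 15602183 to 17659496 reads, and precision is limited by 3 replicates a group.

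Counts were tested with edgeR 4.0.16 in R 4.3.3 (filterByExpr with minimum count 10, TMM scaling, robust quasi-likelihood), with the 6 libraries of each comparison and all 12 for the interaction, and Benjamini-Hochberg adjustment over all genes tested. Standard errors were derived from each fold change and its F value. All thresholds means an adjusted p under 0.01, a log2 fold change beyond 1 and a mean above 1 FPKM in a group. The test was checked on simulated data whose replicates varied less than the untreated ATG7 KO libraries did. That check therefore does not cover the comparisons that hold these libraries. In each comparison the members that passed are named with their values, along with CDKN1A and ATG7, and list genes past all thresholds. Members, lists and tests were chosen with earlier results of these data known, and 1 gene of the upstream list is not reported here. Alternatives were RLE scaling, DESeq2 1.42.0, no filter, a replicate block, leaving out each library, a lowess correction for gene length (span 0.3) and fits of all 12 libraries. Coordinates are GRCh38, and those of all 31 members were the same in GENCODE release 29. Exons of MDM2, XPC, POLH, PLK3, CYFIP2 and PIDD1 overlap other expressed genes, so that reads may be shared.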

Additional observations from a re-analysis of the deposited data

Results flagged for a closer look

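The H2O2 responses of the lines differed, by edgeR's interaction test at an adjusted p under 0.01, in 16 members. The differences (ATG7 KO minus WT, log2) above 0 were 1.6 for TRIM22, 1.43 for ZMAT3, 0.93 for RRM2B, 0.88 for MDM2, 0.85 for FDXR, 0.85 for CYFIP2, 0.78 for PIDD1, 0.78 for PLK2, 0.75 for POLH, 0.71 for TP53INP1 and 0.63 for DDB2. Those under 0 were -1.39 for GADD45A, -1.14 for SERTAD1, -0.99 for TNFAIP8, -0.92 for PLK3 and -0.68 for NINJ1. Gene length and untreated ATG7 KO replicate 1 moved with these differences, and the counts under the length correction and without that replicate are given above.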

How the results depend on the processing

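The member counts of the H2O2 responses moved little. The 1 lower member in WT cells became 0 with the gene length correction, and without 1 library 24 to 28 members were higher in ATG7 KO cells. The comparison of untreated lines moved most. The 1 higher member became 4 with DESeq2, 4 without a filter, 2 with the length correction, 6 with all 12 libraries and 0 to 7 without 1 library. The 2 lower members became 4 with DESeq2, 1 with the replicate block, 4 with the length correction, 8 with all 12 libraries and 1 to 11 without 1 library. Past all thresholds, the 2 lower members became 1 with the replicate block, 1 with the length correction and 1 to 2 without 1 library, and the 1 higher member 0 to 1. With H2O2, the 16 higher members became 9 with all 12 libraries and 14 to 17 without 1 library, and the 9 lower members 7 to 8. For the difference of responses, the counts without 1 library were 7 to 14 more positive and 4 to 8 less positive, with 2 to 3 and 1 to 3 past all thresholds. The cause of these shifts was not tested. The replicate numbers gave no sign of pairing (correlations of same-numbered libraries' deviations from -0.043 to 0.097). Among the members called in a comparison, CDKN1A, ATG7 and the other genes tallied across the settings, no value changed direction, 1565 kept their side of the threshold, 95 no longer passed and 34 newly passed. Libraries left out alone make up 73 of the 95. Members that did not pass and are given without a value, such as MDM4 between the lines with H2O2, were not tallied. One of these, TNFAIP8 in the ATG7 KO response, had a log2 value of -0.02 with all libraries and 0.16 without untreated replicate 1.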
